A study of Homo sapiens with 9 samples.

Results

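The 10 genes described here govern the G1 phase of the cell cycle, and their RNA was measured in HEK293 Freestyle cells after zinc was taken from or returned to the medium. HEK293 is an established line from human embryonic kidney, here grown in suspension. They are the growth-promoting transcription factors MYC and MYCN, the D-type cyclins CCND1, CCND2 and CCND3, their kinases CDK4 and CDK6, the CDK inhibitors CDKN1B and CDKN2C, and the transcription factor E2F1. They were chosen by symbol, and all 10 were found among the 57766 genes of the deposited expression table. In 9 of them expression reached at least 1 RPKM (reads per kilobase of transcript per 1000000 reads) in at least 3 libraries, the level required for testing, and only MYCN stayed below it. After 18 h or more in culture at 1000000 cells/mL, cells were washed in buffer, brought to 4000000 cells/mL and plated into 1 of 3 media for 36 h. The media were Zn(II) Depleted Freestyle Medium (depleted), the same depleted medium repleted with Zn(II) (repleted) and Untreated Freestyle Medium (full). Each medium had 3 libraries of polyadenylated RNA, labelled biological triplicates and 9 in all. The protocol also mentions a wash with the chelator EDTA, and its wording leaves unclear what was washed. The line is immortal and carries adenoviral E1A, a protein known to bind RB, which limits it as a model of G1 control.

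In G1, growth signals raise MYC and the D cyclins, and a D cyclin joined to CDK4 or CDK6 phosphorylates the retinoblastoma protein RB. RB then releases E2F factors, which switch on cyclin E and the genes of DNA replication. Inhibitors of the INK4 family, such as the CDKN2C product p18, block CDK4 and CDK6, and those of the CIP/KIP family, such as the CDKN1B product p27, block cyclin E with CDK2. MYC binds DNA with its partner MAX at the E-box CACGTG, and CDK4 is among its known targets.

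All values are given as RPKM, a level that is relative to all other transcripts of the library and not an amount per cell. Changes are log2 differences of RPKM + 1, which understate those of weakly expressed genes. They were tested with limma, with p-values adjusted over the 15774 genes tested. A gene was called at an adjusted p under 0.05. In bulk RNA, fewer cells with a transcript and less of it per cell cannot be told apart. The labels give no read totals. The spacing of low values pointed to 16750000 to 23500000 reads per library, which gives 395 to 5861 reads for a tested member in a library but only 8 to 39 for MYCN. The media differed in zinc response as labelled. MT2A, a zinc-binding metallothionein, had 6.46 ± 0.687 RPKM in depleted, 93.5 ± 3.34 in repleted and 190.7 ± 8.9 in full medium (SD, n = 3 each), so repleted medium did not bring it to the level of full medium. Across the genes tested, Pearson's r between libraries of 1 group was 0.983 to 0.9874, against 0.9356 to 0.941 between depleted libraries and the others. All 8 markers of the HEK293 background passed the filter, and their summed level was 846.9 to 870 RPKM in depleted, 837 to 861.7 in repleted and 855.4 to 866.6 in full libraries. Of 11 markers of other lineages with values, 9 stayed below 1 RPKM in every library and HBB was listed at 0 throughout. The sum of the 11 was 9.26 to 12.7 RPKM in depleted, 17.3 to 20.3 in repleted and 18.1 to 22 in full libraries, most of it COL1A1, which fell to 8.39 ± 1.92 RPKM in depleted, against 18.2 ± 1.67 in full medium. Of the HEK293 markers, NEFL fell to 6.53 ± 0.376 RPKM in depleted, against 31.8 ± 1.71 in full medium, and PAX2 to 0.6 ± 0.205 in depleted, against 3.29 ± 0.315 in full medium. The part of these marker differences in the results was not tested.

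The stretches before the start sites of CDK4 and E2F1 are shown. These genes are 2 of the 3 members that rose in depleted medium while MYC and the D cyclins fell. CDKN1B also rose and is not shown. The stretches are the 250 bases upstream, 5′ to 3′ on the gene's strand, from RefSeq on build GRCh38.p14. That of CDK4 is chr12:57752311-57752560 on the minus strand and that of E2F1 is chr20:33686386-33686635 on the minus strand. Capitals mark E-boxes (CACGTG) in CDK4 and E2F words (TTTCGCGC, TTTGGCGC, TTTCCCGC or TTTGCCGC, on either strand) in E2F1.
CDK4: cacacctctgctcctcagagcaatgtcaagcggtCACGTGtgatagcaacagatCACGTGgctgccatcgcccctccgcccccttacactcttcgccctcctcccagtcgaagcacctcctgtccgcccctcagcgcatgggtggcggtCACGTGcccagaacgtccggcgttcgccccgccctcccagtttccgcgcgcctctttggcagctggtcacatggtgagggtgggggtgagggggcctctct
E2F1: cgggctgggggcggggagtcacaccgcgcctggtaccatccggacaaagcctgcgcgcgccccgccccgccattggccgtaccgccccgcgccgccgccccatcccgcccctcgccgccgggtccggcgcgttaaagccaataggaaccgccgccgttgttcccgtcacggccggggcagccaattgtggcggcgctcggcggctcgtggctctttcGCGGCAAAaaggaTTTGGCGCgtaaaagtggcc
CDK4 held 3 E-boxes, which begin 216, 196 and 101 bases before the start, and no E2F word. Of 35116 upstream stretches of that length in the RefSeq table, 6.34% held at least 1 E-box and 0.0797% at least 3. E2F1 held 2 E2F words, which begin 33 and 20 bases before the start, and no E-box, and 2.79% of all stretches held at least 1 such word and 0.122% at least 2. In all, 7 of the 10 genes matched the table, with 12 start sites. MYC, CCND1 and CCND2 did not match and were not searched. E-boxes stood at CDK4 and at 2 of the 3 start sites of CDKN2C, and E2F words at E2F1 and MYCN, where 2 overlap each other. The stretch of CDKN1B, which rose, held 0 E-boxes and 0 E2F words. Those of CCND3 and CDK6, which fell, likewise held neither. A match is only a run of letters, and no binding was measured.

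Depleted against full medium asks how these genes differ between zinc-depleted and untreated medium. All 9 tested members were called, 6 lower and 3 higher. Among all genes tested 60.9% were called (31.2% lower and 29.8% higher), so a call alone says little here. MYC, the 3 D cyclins, CDK6 and CDKN2C fell, and CDK4, E2F1 and CDKN1B rose. For each of the 10 genes the ranges of depleted and full libraries were separate, as they were for 67.6% of all genes tested (34.3% with depleted lower and 33.4% with depleted higher). The median log2 change of the 9 members was -0.63, with a median size of 0.63, against 0.00 and 0.36 over all genes tested.

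**Figure D1:**
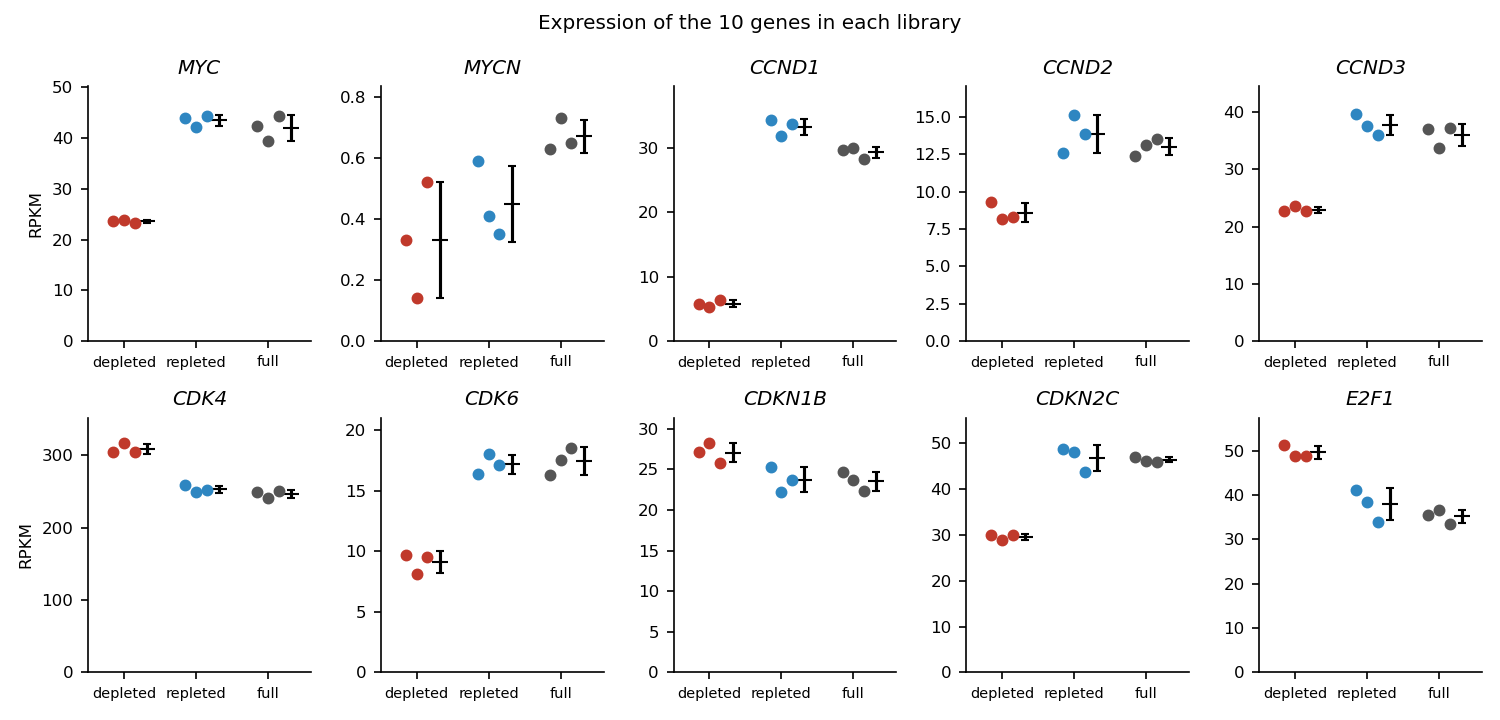
RPKM of each gene (y axes, starting at 0) in the 3 libraries of each medium (points), with the mean and SD beside them. The depleted points lie apart from the others for every gene except MYCN, whose depleted and repleted points overlap.

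MYC (ENSG00000136997) had 23.68, 23.77 and 23.31 RPKM in the depleted libraries and 42.42, 39.36 and 44.47 RPKM in the full libraries. The depleted libraries lay close together and all below the full ones, a 1.78-fold lower mean. The log2 change was -0.81 (SE 0.05, limma adjusted p = 7.45e-07). The related MYCN (ENSG00000134323), a MYC paralog of embryonic and neural tissue, was barely detected, with 0.33, 0.14 and 0.52 RPKM in depleted and 0.63, 0.73 and 0.65 RPKM in full libraries. Its depleted libraries were lower and more scattered. The log2 difference was -0.34, with an exact two-sided permutation p of 0.1, the smallest that 3 against 3 libraries allow. With no filter on low values it was not called (limma adjusted p = 0.0941), and with a pseudocount of 0.1 the log2 difference was -0.94.

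CCND1 (ENSG00000110092), which encodes cyclin D1, fell furthest of the members. It had 5.66, 5.28 and 6.42 RPKM in the depleted libraries and 29.62, 29.97 and 28.28 RPKM in the full libraries. Its mean was 5.06-fold lower than in full medium (log2 -2.16, SE 0.07, limma adjusted p = 1.55e-08), a size that 99.2% of all genes tested did not exceed. CCND2 (ENSG00000118971), encoding cyclin D2, had 9.34, 8.16 and 8.31 RPKM in depleted and 12.40, 13.13 and 13.55 RPKM in full libraries. It was lower in each depleted library than in any full one (log2 -0.55, SE 0.08, limma adjusted p = 0.000252). CCND3 (ENSG00000112576), encoding cyclin D3, had 22.67, 23.54 and 22.66 RPKM in depleted and 37.00, 33.80 and 37.27 RPKM in full libraries. Again no libraries overlapped (log2 -0.63, SE 0.05, limma adjusted p = 6.67e-06). The 95% interval of the log2 change of CCND1, -2.31 to -2.01, lay apart from those of CCND2, -0.73 to -0.37, and CCND3, -0.75 to -0.51.

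The D cyclin transcripts therefore differed in amount and in composition. Their summed level was 37.7, 37.0 and 37.4 RPKM in the depleted and 79.0, 76.9 and 79.1 RPKM in the full libraries. CCND1 made up 15%, 14.3% and 17.2% of that sum in the depleted libraries and 37.5%, 39.0% and 35.8% in the full libraries. CCND3 held 61.5% ± 1.9 in depleted and 46% ± 1.75 in full medium, and CCND2 held 23% ± 1.53 in depleted and 16.6% ± 0.815 in full medium (SD, n = 3 each). Each of these differences had an exact two-sided permutation p of 0.1, the smallest possible, and 0.138 after adjustment over 18 comparisons of sums and shares. CCND1 shares 497 exon bases with LTO1 (ORAOV1 in the deposited table), on the other strand in GENCODE 29, and the sources used here do not say whether strand was used in counting. LTO1 went the other way, with 18.1 ± 2.28 RPKM in depleted and 10.1 ± 1.13 in full medium (log2 0.78 for ORAOV1, limma adjusted p = 0.000268).

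**Figure D2:**
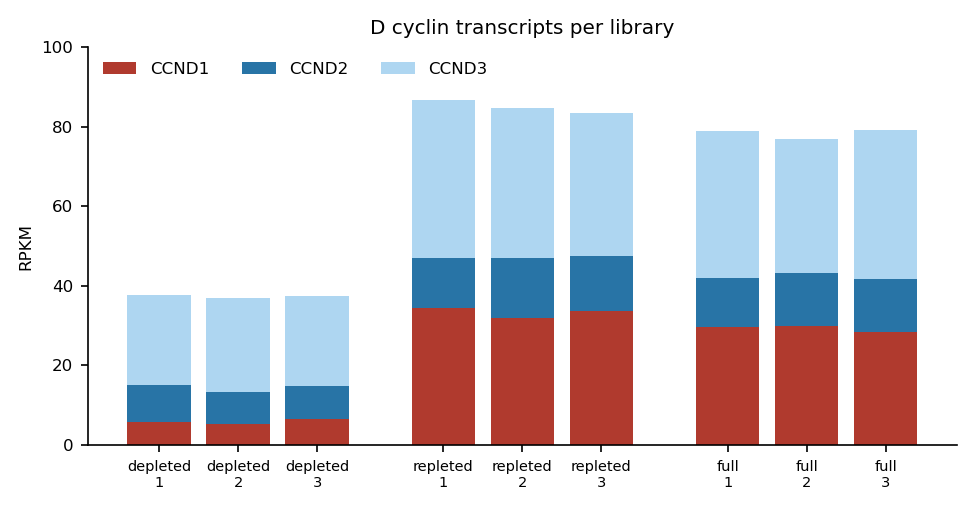
Stacked RPKM of CCND1, CCND2 and CCND3 (y axis, from 0) in each of the 9 libraries. The depleted bars reach 37.0 to 37.7 RPKM and the full bars 76.9 to 79.1, and the CCND1 part shrinks most.

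The kinases of the D cyclins moved in opposite directions. CDK4 (ENSG00000135446), the most abundant member in every group, had 303.98, 316.44 and 304.34 RPKM in depleted and 249.46, 240.43 and 250.25 RPKM in full libraries. Its depleted mean exceeded the full one by 24.9%, with no overlap (log2 0.32, SE 0.03, limma adjusted p = 1.05e-05). CDK6 (ENSG00000105810) had 9.73, 8.10 and 9.53 RPKM in depleted and 16.27, 17.58 and 18.56 RPKM in full libraries, a 1.92-fold lower mean (log2 -0.87, SE 0.08, limma adjusted p = 1.05e-05). CDK6 thus made up 2.88% ± 0.332 of the CDK4 and CDK6 RPKM in depleted and 6.61% ± 0.428 in full medium (SD, n = 3 each, exact two-sided permutation p = 0.1, adjusted p = 0.138). CDK4 shares 1369 exon bases with TSPAN31 on the other strand, which also rose, with 40.4 ± 2.94 RPKM in depleted and 30 ± 4.31 in full medium (log2 0.42 for TSPAN31, limma adjusted p = 0.0031). Reads of such a pair cannot be told apart without strand, and this was not tested.

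The inhibitors also split. CDKN2C (ENSG00000123080), the INK4 inhibitor p18, had 30.03, 28.85 and 29.96 RPKM in depleted and 46.95, 46.15 and 45.97 RPKM in full libraries. The log2 change was -0.63 (SE 0.05, limma adjusted p = 2.96e-06), with tight and separate groups. CDKN1B (ENSG00000111276), the CIP/KIP inhibitor p27, had 27.11, 28.17 and 25.81 RPKM in depleted and 24.60, 23.65 and 22.31 RPKM in full libraries. The groups did not overlap, but the rise was the smallest of the members (14.9%, log2 0.19, SE 0.06, limma adjusted p = 0.021), and it was lost without full replicate 3 (adjusted p = 0.0756), depleted replicate 1 (0.0524) or depleted replicate 2 (0.0752). E2F1 (ENSG00000101412), the activating factor that RB restrains, had 51.33, 48.66 and 48.70 RPKM in depleted and 35.43, 36.55 and 33.49 RPKM in full libraries. All depleted libraries were higher, by 41.0% in the mean (log2 0.48, SE 0.07, limma adjusted p = 0.00018).

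The order of the levels changed with these shifts. In depleted medium it ran CDK4, E2F1, CDKN2C, CDKN1B, MYC, CCND3, CDK6, CCND2, CCND1 and MYCN, in which MYC and CCND3 overlapped, as did CDK6 and CCND2. In full medium it ran CDK4, CDKN2C, MYC, CCND3, E2F1, CCND1, CDKN1B, CDK6, CCND2 and MYCN, in which only CCND3 and E2F1 overlapped as neighbours. CCND1 thus stood below CDKN1B, CDK6 and CCND2 in depleted medium and above them in full medium. In repleted medium CDKN2C and MYC overlapped, as did E2F1 and CCND3, and the others stood as in full medium.

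Depleted against repleted medium asks how the genes differ between media that, per the labels, differ by the returned zinc. It shares the depleted libraries with the comparison above, so the 2 are not independent. Again all 9 tested members were called, 6 lower and 3 higher, where 60.7% of all genes tested were called (31.2% lower and 29.5% higher). Depleted and repleted libraries did not overlap for these 9 genes, as for 65.2% of all genes tested (33.4% lower and 31.7% higher). MYC had 23.68, 23.77 and 23.31 RPKM in depleted and 44.07, 42.24 and 44.28 RPKM in repleted libraries (log2 -0.86, SE 0.05, limma adjusted p = 5.1e-07). CCND1 had 5.66, 5.28 and 6.42 RPKM in depleted and 34.30, 31.84 and 33.65 RPKM in repleted libraries, 5.75-fold lower in the mean (log2 -2.34, SE 0.07, limma adjusted p = 9.53e-09). The groups were again fully separate for both genes. CCND2 averaged 8.6 ± 0.642 RPKM in depleted and 13.9 ± 1.29 RPKM in repleted medium, and CCND3 averaged 23 ± 0.505 RPKM in depleted and 37.8 ± 1.83 RPKM in repleted medium (SD, n = 3 each). Their log2 changes were -0.63 and -0.69.

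The other members gave like values. CDK6 averaged 9.12 ± 0.889 RPKM in depleted and 17.2 ± 0.797 RPKM in repleted medium (log2 -0.85), and CDKN2C averaged 29.6 ± 0.662 RPKM in depleted and 46.7 ± 2.74 RPKM in repleted medium (log2 -0.64). CDK4 averaged 308.3 ± 7.09 RPKM in depleted and 253 ± 4.99 RPKM in repleted medium (log2 0.28), and E2F1 averaged 49.6 ± 1.53 RPKM in depleted and 37.8 ± 3.6 RPKM in repleted medium (log2 0.38, SE 0.07, limma adjusted p = 0.000793). Repleted replicate 1, at 41.14 RPKM, was the highest of its group for E2F1 and still below every depleted library. CDKN1B averaged 27 ± 1.18 RPKM in depleted and 23.7 ± 1.55 RPKM in repleted medium (log2 0.18, limma adjusted p = 0.0273). That call was lost with no filter (adjusted p = 0.0525) and without depleted replicate 1 (0.0643) or 2 (0.0939) or repleted replicate 2 (0.0967) or 3 (0.0578). MYCN had 0.33, 0.14 and 0.52 RPKM in depleted and 0.59, 0.41 and 0.35 RPKM in repleted libraries, which overlap (log2 difference -0.13, exact two-sided permutation p = 0.4).

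**Figure D3:**
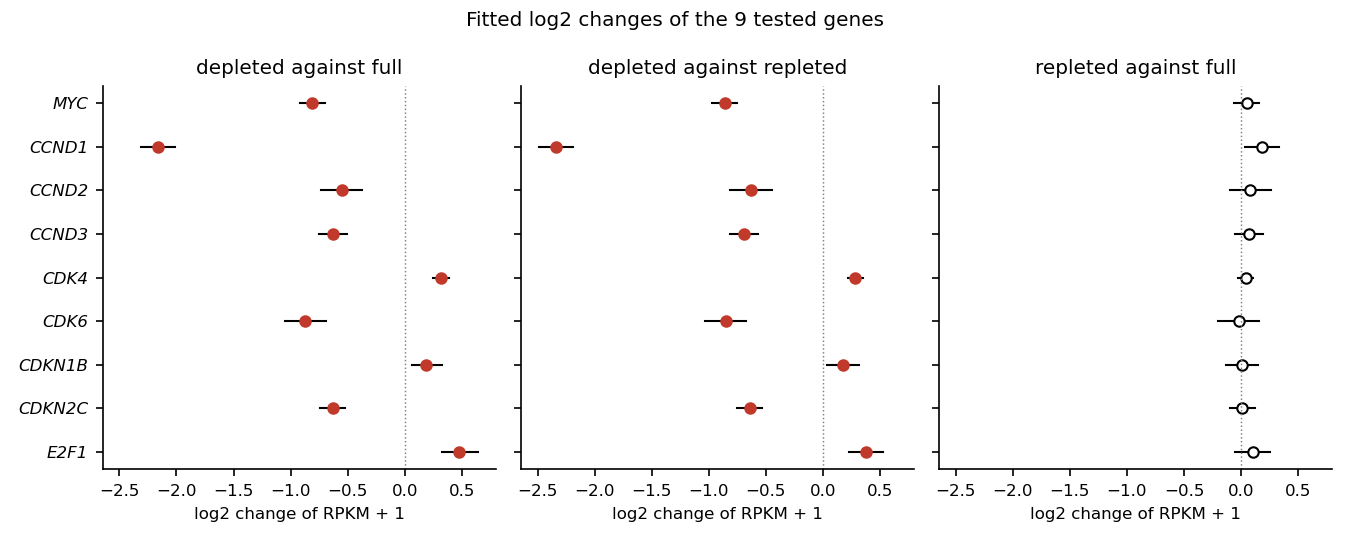
Log2 change of RPKM + 1 (x axes) of the 9 tested genes in each comparison, with 95% intervals from limma. Filled points passed an adjusted p of 0.05. The left and middle panels share the depleted libraries, and in the right panel no point is filled.

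Repleted against full medium asks what differed once zinc had been returned, to the extent that it was. With limma 0 of the 9 tested members were called, and 1, CCND1, had an unadjusted p under 0.05. Of all genes tested 0.0317% were called, 5 genes, all lower, with MT2A among them. CCND1 had 34.30, 31.84 and 33.65 RPKM in repleted and 29.62, 29.97 and 28.28 RPKM in full libraries. The repleted libraries lay above the full ones by 13.6% in the mean (log2 0.18, 95% interval 0.03 to 0.33, unadjusted p = 0.0263, limma adjusted p = 0.592), where 12.4% of all genes tested did not overlap (5.39% with repleted higher and 7% with repleted lower). The summed D cyclin level was 84.9 ± 1.54 RPKM in repleted and 78.3 ± 1.25 RPKM in full medium (SD, n = 3 each, exact two-sided permutation p = 0.1, adjusted p = 0.138), also without overlap. MYCN was the other gene of the 10 without overlap, with 0.59, 0.41 and 0.35 RPKM in repleted and 0.63, 0.73 and 0.65 RPKM in full libraries (log2 difference -0.21, exact two-sided permutation p = 0.1). For MYC the 95% interval of the log2 change was -0.06 to 0.16, for CCND2 -0.10 to 0.26 and for CCND3 -0.05 to 0.19. The interval was -0.03 to 0.10 for CDK4, -0.20 to 0.16 for CDK6, -0.13 to 0.15 for CDKN1B, -0.10 to 0.12 for CDKN2C and -0.05 to 0.25 for E2F1.

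MYC works within a network of partners, so its dimer partners and antagonists were counted next. Of 10 such genes, all tested, 3 rose and 5 fell in depleted against full medium, where 60.9% of all genes tested were called, with a median log2 change of -0.20. MAX, the obligate partner of MYC, fell to 37.2 ± 1.72 RPKM in depleted, against 47.1 ± 0.942 in full medium (log2 -0.33). Among the MXD proteins, which compete with MYC for MAX and repress its targets, MXD1 had 5.74 ± 0.923 RPKM in depleted and 3.19 ± 0.11 in full medium (log2 0.68) and MXD4 had 77.9 ± 0.435 in depleted and 58.7 ± 3.96 in full medium (log2 0.40). The related antagonists MXI1 and MGA fell (log2 -0.37 and -0.59), as did MYCL, another MYC family gene, at 2.17 ± 0.177 RPKM in depleted and 3.25 ± 0.0757 in full medium.

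Of 18 genes known as MYC targets in ribosome synthesis and growth, all tested, 2 rose and 14 fell in depleted against full medium, where 29.8% of all genes tested rose and 31.2% fell. Without full replicate 2, 1 rose and 13 fell. Their median log2 change was -0.32, against 0.00 over all genes tested. Of the 6 most abundant, NPM1, a nucleolar chaperone of ribosome assembly, fell to 1485 ± 33.1 RPKM in depleted, against 2331 ± 57.6 in full medium (log2 -0.65). The nucleolar genes NCL, FBL and NOP56 fell by 0.30, 0.30 and 0.24 on the log2 scale. SRM, the spermidine synthase, rose to 313.2 ± 7.38 RPKM in depleted, against 263.4 ± 13.8 in full medium (log2 0.25). The lactate dehydrogenase LDHA was not called, at 665.5 ± 8.12 RPKM in depleted and 684.6 ± 27.3 in full medium (log2 -0.04, limma adjusted p = 0.384), but its sign turned after median centring (log2 0.01), and after quantile normalization it was called lower (log2 -0.16, adjusted p = 0.00613). Against repleted medium quantile normalization likewise called LDHA lower (log2 -0.20, limma adjusted p = 0.00169). Against repleted medium 1 of the 18 rose and 14 fell, with the same median of -0.32. In that comparison 29.5% of all genes tested rose and 31.2% fell, with a median of -0.01.

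Cyclin E and its kinase act after the D cyclins. Of 8 genes of that axis 4 rose and 4 fell in depleted against full medium (median log2 0.07), where 60.9% of all genes tested were called. The cyclin E genes both rose, CCNE1 to 40.7 ± 0.956 RPKM in depleted, against 27.8 ± 1.86 in full medium (log2 0.54), and CCNE2 to 18.6 ± 0.866 in depleted, against 12 ± 1.46 in full medium (log2 0.60). So did CDC25A, the phosphatase that activates CDK2 (log2 0.34), while CDK2 itself fell to 71.6 ± 3.19 RPKM in depleted, against 81.8 ± 1.88 in full medium (log2 -0.19). Against repleted medium CDK2 was not called (log2 -0.10, limma adjusted p = 0.104), but it was called lower after quantile normalization (log2 -0.14, adjusted p = 0.0263) and without repleted replicate 2 (log2 -0.15, adjusted p = 0.0213). MNAT1, a subunit of the kinase complex that activates other CDKs, fell most, to 9.97 ± 2.18 RPKM in depleted, against 39.1 ± 0.519 in full medium (log2 -1.89, SE 0.13, limma adjusted p = 1.85e-06). Its partners in that complex differed: the kinase CDK7 rose (log2 0.44) and its cyclin CCNH fell (log2 -0.44). Against repleted medium CDK7 was not called (log2 0.19, limma adjusted p = 0.157), and the call of CCNH (log2 -0.32, adjusted p = 0.015) was lost without depleted replicate 3 (0.0529) or repleted replicate 3 (0.0548). Cyclin A, encoded by CCNA2 and used in S phase, had 47.7 ± 1.11 RPKM in depleted and 63.4 ± 0.485 in full medium (log2 -0.40). Against repleted medium 3 of the 8 rose and 3 fell, where 60.7% of all genes tested were called.

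Among the 5 other CDK inhibitors 2 rose and 2 fell in depleted against full medium (median log2 0.29), where 60.9% of all genes tested were called. CDKN2D, the INK4 inhibitor p19 and a relative of CDKN2C, had the largest rise in the lists, to 30 ± 0.663 RPKM in depleted, against 4.59 ± 0.988 in full and 4.93 ± 0.572 in repleted medium. It was 6.54-fold higher than in full medium (log2 2.49, SE 0.12, limma adjusted p = 2.05e-07) and 6.09-fold higher than in repleted medium (log2 2.39). CDKN2A, which encodes p16 and ARF, fell to 119.4 ± 0.69 RPKM in depleted, against 187.5 ± 6.62 in full medium (log2 -0.65). CDKN2B, the INK4 inhibitor p15, was not called, at 9.57 ± 0.878 RPKM in depleted and 7.62 ± 0.725 in full medium (log2 0.29, limma adjusted p = 0.0695). It was called higher with only the 6 libraries compared (adjusted p = 0.028), after median centring (0.0419), after quantile normalization (0.0347) and without repleted replicate 2 (0.0214). CDKN1A, the p53 target p21, fell slightly, to 84.1 ± 3.31 RPKM in depleted, against 92.2 ± 2.58 in full medium (log2 -0.13, limma adjusted p = 0.0233), but had 80.2 ± 3.14 in repleted medium, where it was not called (log2 0.07). CDKN1C, the CIP/KIP inhibitor p57, rose to 8.92 ± 1.13 RPKM in depleted, against 6.94 ± 0.592 in full medium (log2 0.32). The calls of CDKN1A and CDKN1C against full medium did not hold in all alternatives, with limma adjusted p up to 0.175 and 0.0709. CDKN1A lost its call after median centring and without full replicate 2 or 3 or depleted replicate 1, and CDKN1C without full replicate 1 or 2 or depleted replicate 1.

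RB and its relatives were counted with the MuvB core, the complex that joins RBL1 or RBL2 to silence cell cycle genes outside the cycle. Of these 8 genes 5 rose and 2 fell in depleted against full medium, and likewise against repleted medium (median log2 0.40 and 0.42), where 60.9% and 60.7% of all genes tested were called. The smallest of the rises, that of LIN9, lost its call against full medium in 9 of 17 alternatives, among them without any 1 of the full replicates or without depleted replicate 1 or 3 (limma adjusted p up to 0.137). Against repleted medium LIN9 lost its call without depleted replicate 1 (limma adjusted p = 0.0675). RB1 rose to 22.7 ± 0.422 RPKM in depleted, against 14.3 ± 1.06 in full medium (log2 0.63), while RBL1, which encodes p107, fell to 3.02 ± 0.148 in depleted, against 7.37 ± 0.186 in full medium (log2 -1.06). RBL2, which encodes p130, fell to 9.82 ± 0.898 RPKM in depleted, against 15.5 ± 0.561 in full medium (log2 -0.61). The core subunits LIN37, LIN52 and RBBP4 rose (log2 1.06, 0.69 and 0.64). LIN37 shares 752 exon bases with AD000671.1 on the same strand, at 16.9 ± 1.95 RPKM in depleted and 8.43 ± 0.72 in full medium. RBBP4 shares 1706 with SYNC on the other strand, at 18 ± 1.68 in depleted and 9.16 ± 0.809 in full medium. RBL2 shares 610 with AKTIP on the other strand, which went against it, at 21.1 ± 2.17 in depleted and 14 ± 2.2 in full medium. The part of shared reads in these changes was not tested. Exon bases are also shared with other genes tested by MXD1, MGA, CCNE2, CCNA2, CCNH, CDK2, CDKN2A, CUL1, E2F5, NOP56, MCM2, MCM7 and TYMS of the lists. Of the 9 other E2F and DP factors 3 rose and 3 fell in depleted against full medium (median log2 -0.04), 66.7% called, against 60.9% of all genes tested. The smallest of those rises, that of E2F4, lost its call in 7 of 17 alternatives, among them without depleted replicate 1 or 3 or full replicate 2 or 3 (limma adjusted p up to 0.141). E2F7, a repressor, had 14.9 ± 0.696 RPKM in depleted and 9.19 ± 0.571 in full medium (log2 0.64), and E2F5, a partner of RBL2, had 5.87 ± 0.208 in depleted and 11.6 ± 0.111 in full medium (log2 -0.87).

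Targets of E2F did not move one way with E2F1. Of 16 such genes 6 rose and 3 fell in depleted against full medium, 56.2%, close to the 60.9% of all genes tested. The median log2 change was 0.03. Of the 6 most abundant, the ribonucleotide reductase RRM2 rose to 294.7 ± 3.75 RPKM in depleted, against 214.7 ± 7.94 in full medium (log2 0.46). The replication genes MCM4 and PCNA rose (log2 0.32 and 0.12) and the thymidylate synthase TYMS fell (log2 -0.23). MCM7 (log2 0.05, limma adjusted p = 0.114) and MCM2 (log2 -0.05, limma adjusted p = 0.292) were not called. MCM7 was called higher after median centring (log2 0.10, limma adjusted p = 0.0238) and quantile normalization (log2 0.06, limma adjusted p = 0.0357). MCM2 was called lower without depleted replicate 2, against full medium (log2 -0.10, limma adjusted p = 0.0487) and against repleted medium (log2 -0.12, limma adjusted p = 0.0208). Against repleted medium 7 rose and 3 fell, 62.5%, close to the 60.7% of all genes tested. The smallest of those rises, that of PCNA (log2 0.08), lost its call in 11 of 17 alternatives (limma adjusted p up to 0.145). Another rise, of a less abundant gene, lost its call in 9 of 17.

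The levels of MYC, cyclins and p27 proteins are set largely by ubiquitin ligases. Parts of these ligases made up the last list, together with the deubiquitinases USP28, which was not called, and USP36. Of 11 genes 2 rose and 6 fell in depleted against full medium, and the same numbers against repleted medium (median log2 -0.25 and -0.42), 72.7% called in each, where 60.9% and 60.7% of all genes tested were called. SKP2, the subunit that targets p27, fell to 41.9 ± 1.17 RPKM in depleted, against 77.8 ± 2.37 in full medium (log2 -0.88, SE 0.04, limma adjusted p = 1.58e-07), while its cofactor CKS1B rose to 167 ± 0.68 in depleted, against 137.9 ± 7.3 in full medium (log2 0.28). AMBRA1, the receptor that marks D cyclins for degradation, fell to 5.54 ± 0.208 RPKM in depleted, against 14 ± 0.898 in full medium (log2 -1.19), and FBXO4, also reported to act on cyclin D1, to 3.31 ± 0.574 in depleted, against 6.26 ± 0.408 in full medium (log2 -0.76). The scaffold CUL1 fell by 0.81 on the log2 scale. FBXW7, which targets MYC and cyclin E, had 5.79 ± 1.08 RPKM in depleted and 7.97 ± 0.537 in full medium (log2 -0.41), a call lost after quantile normalization (limma adjusted p = 0.0516). USP36, a nucleolar deubiquitinase known to stabilise MYC, rose to 35.2 ± 2.91 RPKM in depleted, against 22.8 ± 1.96 in full medium (log2 0.60). No protein was measured. Between repleted and full medium, limma called 0 genes in each of these 8 lists, with between 0 and 3 genes a list at an unadjusted p under 0.05.

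**Figure D4:**
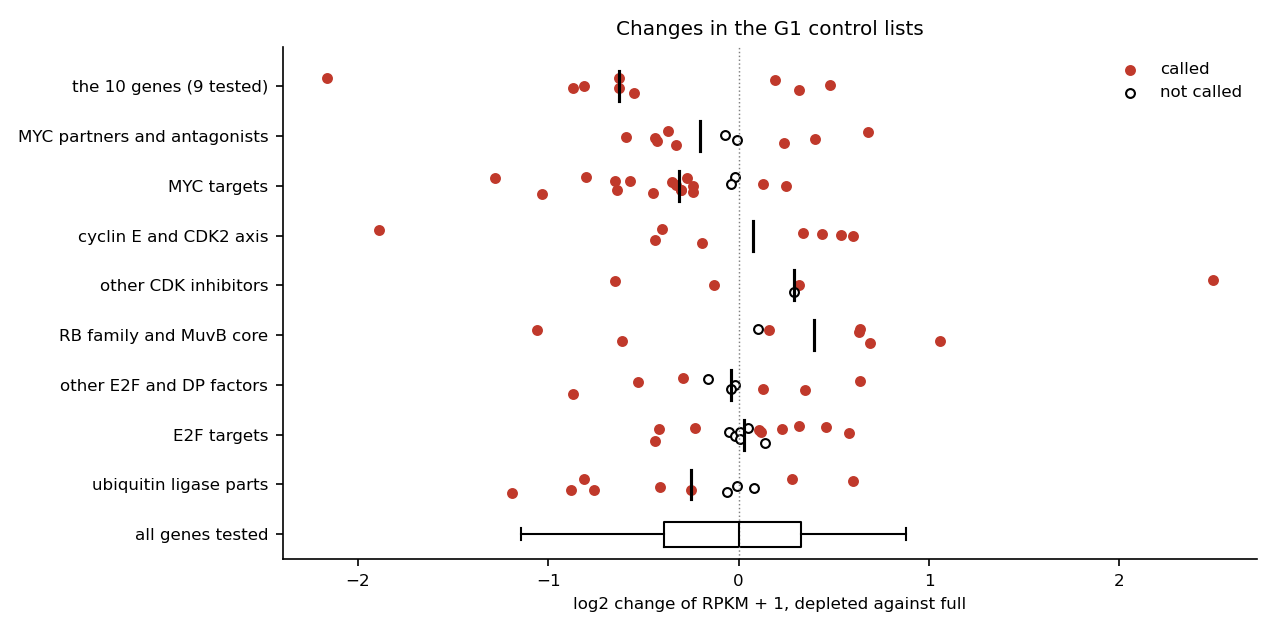
Log2 change in depleted against full medium (x axis) of each tested gene of the 10 and of the 8 lists (points, spread vertically for sight only), with the list's median (bar). The box below gives the quartiles of all 15774 genes tested, with whiskers at the 5th and 95th percentiles. The MYC targets lie mostly left of 0 and CDKN2D far right.

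The profile over the 9 libraries was close to that of many other genes. For MYC, 3158 tested genes outside the members had Pearson's r above 0.9 with it across the libraries, and the closest were NRGN (r = 0.9982), LRP5 (0.9981) and HSD17B8 (0.9968). For CCND1 they were LY6E (0.9986), CCDC22 (0.9985) and SYT3 (0.9985), for CCND2 LARP1 (0.9949), FZD4 (0.9914) and URB1 (0.9908), and for CCND3 FOXD2 (0.9970), POMT2 (0.9968) and NUDT9 (0.9951). These values describe 9 libraries in 3 groups, of which the depleted group stands apart, and say nothing of shared control.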

How the data were processed

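Polyadenylated RNA was sequenced from single ends on an Illumina HiSeq, per the labels' protocols. The authors deposited log2 values of RPKM + 1 per Ensembl gene, and per the file headers also gene lengths. The submitters' processing notes name bedtools 2.25.0.3, Bowtie 1.0.1, RSEM 1.2.6 and BWA 0.7.12-r1039 and the builds hg19 and GRCh37, without saying what each was used for. Further scaling between libraries is not given in the sources used here. Undoing the log gave multiples of 0.01 RPKM in 100% of values (tolerance 2e-04 RPKM). No read counts were used. Depth was estimated from steps between low values of genes with effective lengths of 100 to 500 nucleotides, of which 60.5% to 67.3% per library were whole reads within 0.1, so it is approximate, and no interval was computed from it.

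limma 3.58.1 in R 4.3.3 was fitted on the deposited log2 values of the 9 libraries together, with a mean-variance trend and 1 mean per medium. The filter of 1 RPKM reached in 3 or more libraries left 15774 genes, whose p-values were adjusted by Benjamini-Hochberg and called at 0.05, and the fit was tested on simulated data. P-values measure the spread between cultures labelled as biological triplicates. Sums and shares were tested by two-sided exact permutation. The members and lists were chosen with earlier results of these data known. All members are named, any tested gene of lists of up to 11 genes may be named, of longer lists the 6 most abundant, and for MYC and each D cyclin the 3 genes most alike in profile. LTO1, TSPAN31, AD000671.1, SYNC, AKTIP and MT2A were added after their values were seen. The symbols RBL1 and CKS1B stand on 2 identifiers each, of which the one in the names table was used, and the marker PECAM1 was not analysed here. D cyclins and CDK4 with CDK6 are paralogs, whose shared reads the counting may have split. Exon overlaps come from GENCODE 29 and upstream sequences from RefSeq, both on a later build than the values, so no gene coordinates are given. Alternatives were a pseudocount of 0.1, no filter, a mean of at least 1 RPKM, only the 6 libraries compared, a replicate block, median centring, quantile normalization, each library left out and a threshold of 0.01. Plots were made in Python 3.11.15 (matplotlib 3.10.9).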

Additional observations from a re-analysis of the deposited data

How the results depend on the processing

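Of the 9 tested members, 8 kept their direction and their call in depleted against full and against repleted medium under all 17 alternatives. The exception was CDKN1B, which kept its direction (log2 0.16 to 0.24 and 0.14 to 0.23) and was also lost at a threshold of 0.01. The number of members called was 8 to 9 in both depleted comparisons and 0 between repleted and full medium in every setting. With the replicate number as a block, 9 members were called in both depleted comparisons. Residuals of same-numbered libraries of different media correlated at -0.0144 to 0.0726, and those of differently numbered ones at -0.0609 to 0.0416. These ranges overlap, which does not settle whether the cultures were paired. The libraries were taken to share only a number, and the block changed no member's call. Among all genes, repleted against full medium gave 5 calls, but 3 with a pseudocount of 0.1, 2 with no filter, 2 with the 6 libraries compared, 2 with the replicate block, 1 at a threshold of 0.01 and 1 to 9 with a library left out. Against full medium, depleted medium gave 4693 higher and 4918 lower calls, and 5186 and 4498 after median centring. Signs near 0 turned between repleted and full medium for CDK6 (log2 0.02 without full replicate 3, 0.01 without repleted replicate 1), CDKN1B (-0.02 and -0.03 without the same libraries) and CDKN2C (-0.02 without repleted replicate 1, -0.01 without repleted replicate 2), none of them called. With a library left out their log2 changes were -0.07 to 0.02, -0.03 to 0.06 and -0.02 to 0.06. In depleted medium they turned for LDHA against full (0.01 after median centring) and MCM7 against repleted (0.02 after median centring, 0.00 after quantile normalization). The cause was not tested. Shares kept their direction in each setting run. Depth limits MYCN alone among the members.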
